A study of Mus musculus with 3 samples.

Results

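Aminoacyl-tRNA synthetases are the enzymes that join each amino acid to its tRNA. The set described here holds 35 of the 17857 genes in the count table, chosen by name: 19 genes for cytosolic enzymes and 16 for mitochondrial enzymes, whose symbols end in 2. All 35 had enough counts to be tested (a summed count of at least 10). Gars and Kars, whose products serve the cytosol and the mitochondria alike, were counted with the cytosolic genes. The choice went by name and used no measured value, although earlier results of these data were known when it was made. Wars lies outside the set.

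The study sorted cells from lymph nodes that drained B16F10 melanomas in C57BL/6J mice, 14 days into tumour growth and without treatment. The sort kept cells with Ly6C and c-kit on their surface and without CD11c, and the nodes were pooled beforehand. There are 3 libraries in 1 group, named replicates 1, 2 and 3, each made from 8 ng of total RNA, and no control population. The series' title concerns BTK and IDO, and IDO breaks down tryptophan. Nothing in the labels says that the 3 libraries came from separate mice, so the p-values below rest on a spread that may be technical.

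As background, each cell keeps a cytosolic set of these enzymes for translation on cytosolic ribosomes and a mitochondrial set, encoded in the nucleus, for the proteins made inside mitochondria. Class I and class II enzymes differ in the fold of their catalytic domain. When an amino acid runs short, uncharged tRNA activates the kinase GCN2 (Eif2ak4), translation of the factor ATF4 rises, and ATF4 promotes transcription of many cytosolic synthetase genes through a composite C/EBP-ATF element. GCN2 is a known sensor of tryptophan loss in lymphocytes.

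That element is visible in the sequence of several members, so their windows are shown first. RefSeq promoter windows of GRCm38.p6, from 250 bases before to 50 after each start site, were matched for 13 cytosolic and 14 mitochondrial genes. They were searched on both strands for TGATGNAA, whose reverse complement is TTNCATCA. Of the cytosolic genes 5 held it, and of the mitochondrial genes 0 did, while 4.51% of 27025 genes with such a window held it. For each of these 5 genes 1 match is shown, chosen for display and marked in capitals, and each window runs 5′ to 3′ on the gene's strand.
Aars, chr8:111033840-111033869, + strand: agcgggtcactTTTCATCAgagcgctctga
Gars, chr6:55037960-55037989, + strand: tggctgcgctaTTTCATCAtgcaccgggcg
Iars, chr13:49682126-49682155, + strand: cactgtcagtaTTGCATCAcctccagacgc
Tars, chr15:11399655-11399684, - strand: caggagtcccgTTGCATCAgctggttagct
Yars, chr4:129189895-129189924, + strand: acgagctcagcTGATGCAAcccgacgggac

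Counted with the start site as 0, the first base of the match shown lay at 9 in Aars, -30 in Gars, 7 in Iars, -15 in Tars and 3 in Yars. In 4 of these matches the gene's strand reads the reverse complement, and in Yars it reads the motif itself. A match describes the letters in the window and is not evidence of binding.

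Levels below are normalised read counts (CPM, read counts scaled to library size) divided by gene length in kilobases, so that genes of different length can be compared, and errors are SD with n = 3 libraries. Library totals ranged from 9077195 to 13885509 counts, and the 35 genes were read by 68 to 12818 counts per library. Each of the 35 exceeded the mean level of olfactory receptor genes in every library, the smallest ratio being 10.8. The genes behind the sort were low for Kit (1.36 ± 0.470 CPM per kilobase) and uneven for Ly6c2 (14.4, 151 and 51.5) and Ly6c1 (11.6, 2.60 and 10.7). Itgax, which encodes CD11c, was read at 7.80 ± 2.57 CPM per kilobase although the sort took cells without CD11c, above Kit in each library. The 5 T cell genes, all of them read, summed to 2150 to 2820 CPM, while 5 erythroid genes summed to 3674, 50.1 and 257 CPM and 5 neutrophil genes to 161, 64.5 and 651 CPM in replicates 1, 2 and 3. Macrophage genes summed to 812, 90.9 and 200 CPM, B cell genes to 78.3 to 189 CPM and melanoma genes to 0.571 to 5.28 CPM. The part of these other cells in the values below was not tested, and in a sorted bulk sample fewer cells of a type cannot be told apart from less RNA per cell.

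Cytosolic enzymes stood higher than mitochondrial ones in these cells. The median cytosolic gene was read at 30.5 CPM per kilobase and the median mitochondrial gene at 7.52, against 5.50 for all 15490 genes tested. Within a library, the mean log2 level of the cytosolic genes exceeded that of the mitochondrial genes by 1.65, 1.42 and 1.51 in replicates 1, 2 and 3 (1.52 ± 0.12, a 2.88-fold difference). The 3 differences lay close together. Without Lars2, the mitochondrial gene with the highest level, the difference was 1.78, and with the median in place of the mean it was 1.90.

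**Figure D1:**
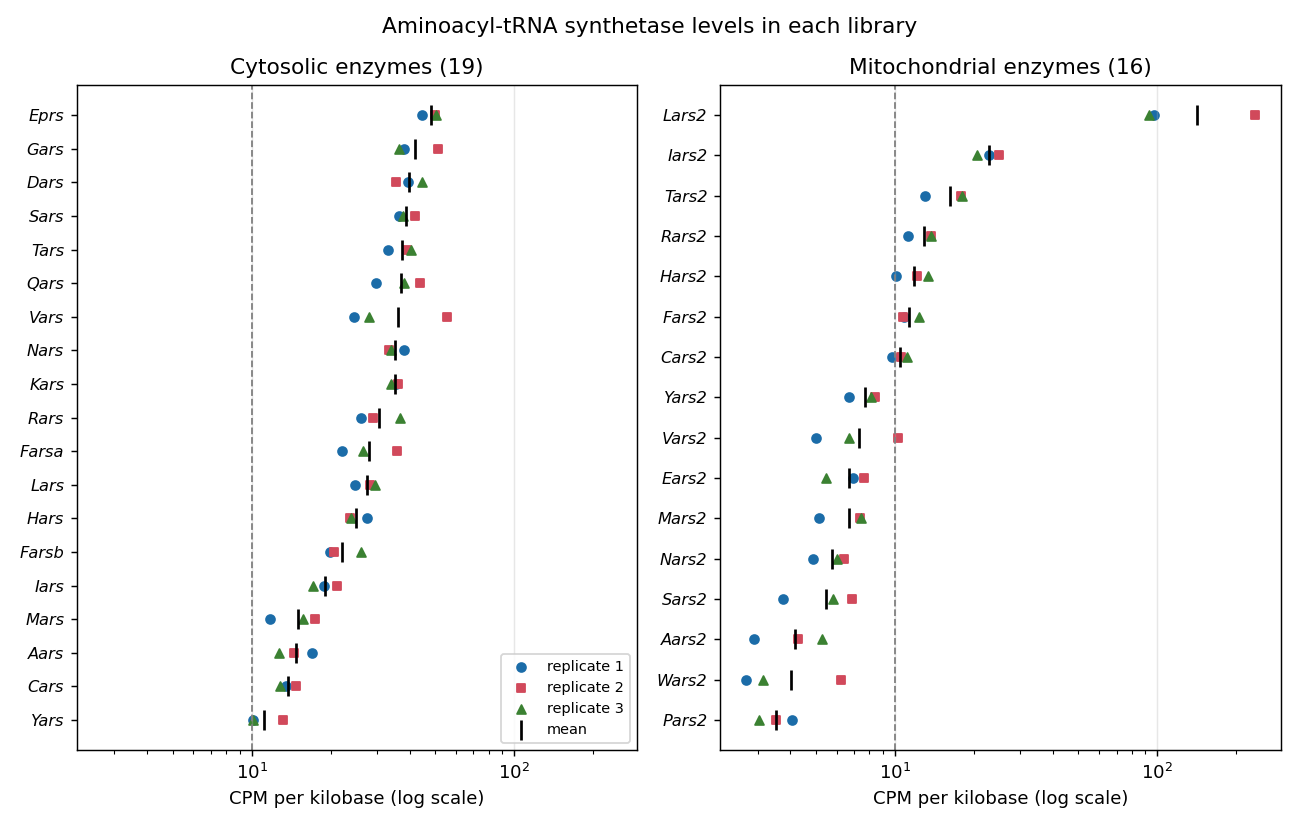
Level of each synthetase gene in CPM per kilobase (log axis), with 1 point per library, a black tick for the mean of 3 libraries and a dashed line at 10 CPM per kilobase. Among cytosolic genes Yars has the lowest mean (11.1) and Eprs the highest (48.4), while the mitochondrial genes span 3.54 for Pars2 to 142 for Lars2.

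Levels were tested against a fixed reference of 10 CPM per kilobase with edgeR's quasi-likelihood test, adjusted over all genes. Of the 19 cytosolic genes 18 lay above it and 1, Yars, was not separated from it. Of the 16 mitochondrial genes 3 lay above, 7 below and 6 were not separated. The background in this test was 30.9% of genes above and 37.4% below. Against 50 CPM without length scaling, where 19.9% of all genes lay above and 66.7% below, 13 cytosolic and 3 mitochondrial genes lay above and 1 and 13 below. All 35 lay above 1 CPM, as did 68.6% of all genes.

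**Figure D2:**
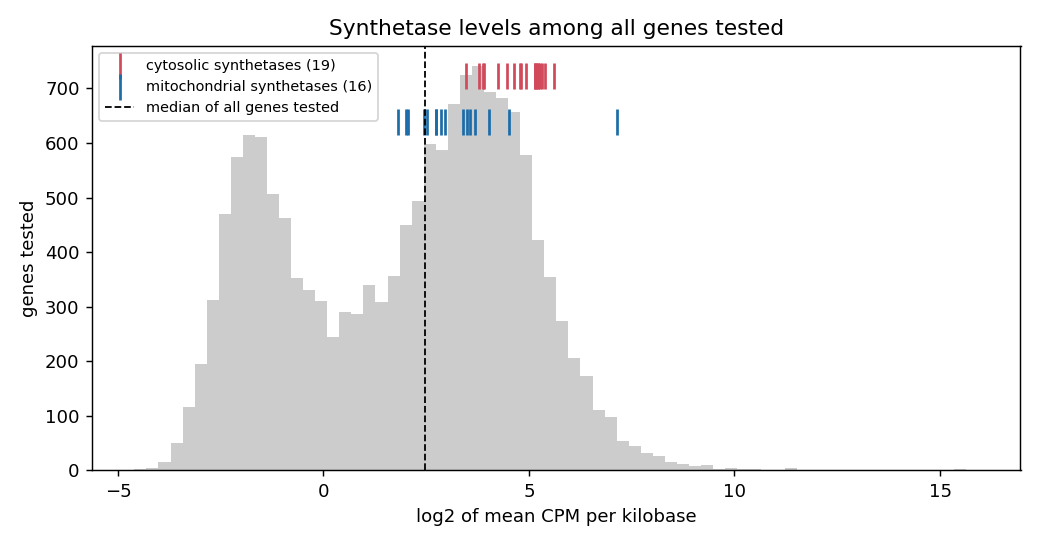
Histogram of log2 mean CPM per kilobase over the 15490 genes tested, with a dashed line at their median and 1 tick for each cytosolic (red) and mitochondrial (blue) synthetase. All 19 cytosolic ticks lie to the right of the median, while the mitochondrial ticks fall on either side of it, with Lars2 alone at the far right.

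Eprs led the cytosolic set. Its product is a fusion that charges tRNAs for glutamate and for proline and belongs to the multisynthetase complex, a cytosolic assembly of several synthetases around scaffold proteins. Eprs was read at 44.6, 50.2 and 50.5 CPM per kilobase in replicates 1, 2 and 3 (edgeR adjusted p = 8.26e-07 against 10 CPM per kilobase). The 3 libraries were close, and the mean stood at the 92.4th percentile of genes tested. In GRCm38.p6 the gene is Entrez gene 107508, chromosome 1, 185361417 to 185428360.

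The other 7 complex members followed over a range. Dars, for aspartate, was read at 39.4, 35.4 and 44.5 CPM per kilobase. Qars, for glutamine, was read at 29.9, 43.6 and 37.9, with replicate 1 lowest. Kars, for lysine, was the most even of the 35 genes, at 35.4, 36.1 and 34.0 CPM per kilobase. Its coefficient of variation of 2.94% was below the 3.32% that counting error gives. Rars, for arginine (30.5 ± 5.47), Lars, for leucine (27.5 ± 2.55), Iars, for isoleucine (18.9, 21.2 and 17.1 in replicates 1, 2 and 3), and Mars, for methionine (15.0 ± 2.95), completed the complex. All 8 lay above 10 CPM per kilobase, although Mars did not without replicate 3 (edgeR adjusted p = 0.0741).

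Membership of the complex went with little difference in level. Its 8 genes exceeded the other 11 cytosolic genes by 0.19, 0.16 and 0.37 log2 units in replicates 1, 2 and 3 (0.24 ± 0.12). The 3 scaffold genes were less alike than the enzymes they hold. Aimp1 was read at 41.8, 36.4 and 41.4 CPM per kilobase, near Dars, and lay above 10 CPM per kilobase (edgeR adjusted p = 2.05e-06). Aimp2 (6.11 ± 1.74) and Eef1e1 (10.5 ± 4.21) were not separated from it (0.0710 and 0.823).

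Among cytosolic enzymes outside the complex, Gars, for glycine, was highest, at 38.0, 51.2 and 36.4 CPM per kilobase (edgeR adjusted p = 2.44e-06). Replicate 2 stood above the other libraries, which were close together. Sars, for serine (38.7 ± 2.85), Tars, for threonine (37.5 ± 3.98), and Nars, for asparagine (35.2 ± 2.54), were nearly as high. The means of these 4 genes differ by no more than the SD of Gars.

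Vars, for valine, whose product associates with the elongation factor that delivers charged tRNA to the ribosome, was the least even cytosolic gene. It was read at 24.6, 55.7 and 28.0 CPM per kilobase in replicates 1, 2 and 3. Replicate 2 was 2.26 times replicate 1. The gene still lay above 10 CPM per kilobase (edgeR adjusted p = 6.81e-05).

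Phenylalanyl-tRNA synthetase is built from the products of Farsa and Farsb in equal numbers. Farsa was read at 22.0, 35.7 and 26.5 CPM per kilobase and Farsb at 19.9, 20.6 and 26.1. Their log2 difference was 0.15, 0.79 and 0.03 (0.32 ± 0.41), so it was smaller than its spread over libraries. Farsa was highest in replicate 2 and Farsb in replicate 3. In GENCODE, exons of Farsb share 248 bases with Sgpp2 on the opposite strand.

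Hars, for histidine, stood at 25.0 ± 2.16 CPM per kilobase. The 3 lowest cytosolic means were those of Aars, for alanine (14.7 ± 2.16), Cars, for cysteine (13.7 ± 0.997), and Yars, for tyrosine. In GENCODE, exons of Aars share 1326 bases with Exosc6 on the same strand, so reads from there cannot be assigned to Aars alone. These bases lie at 4425 to 5750 of the longest coding transcript, while the deposited gene length is 4891, so the counted part is not known. Yars was read at 10.1, 13.2 and 10.1 CPM per kilobase and was not separated from 10 (edgeR adjusted p = 0.387). Cars lost its call above that level without replicate 2 (0.0628) and without replicate 3 (0.0888). For comparison Wars, which charges tryptophan, was read at 11.3, 18.2 and 10.2 CPM per kilobase and was also not separated (0.0817), so it stood beside Yars.

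The 5 genes with the promoter motif were spread over the cytosolic order, from 41.9 for Gars and 37.5 for Tars, through Iars and Aars, to 11.1 CPM per kilobase for Yars. Levels of genes with the motif therefore overlapped those of Eprs, Dars, Farsa, Farsb, Kars, Mars, Qars and Sars, in whose windows these letters were not found.

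Among mitochondrial enzymes, Lars2, for leucine, stood apart. It was read at 97.4, 236 and 92.9 CPM per kilobase in replicates 1, 2 and 3, so that replicate 2 was 2.54 times replicate 3. The mean of 142 ± 81.1 was at the 98.6th percentile of genes tested (edgeR adjusted p = 3.70e-07 against 10 CPM per kilobase), and each library exceeded every other member. The gene is Entrez gene 102436, chromosome 9, 123366927 to 123462675 in GRCm38.p6.

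Part of the Lars2 transcript is shared with another RNA. In the 3′ UTR, in exon 21 of the longest GENCODE coding transcript, 72 bases (chromosome 9, 123462048 to 123462119, GRCm38) match the noncoding transcript Gm15564 with 98.6% identity. GENCODE types Gm15564 as antisense, but its exons do not overlap those of Lars2 in the genome. The coding sequence of Lars2 ends before these bases, at 123461675. Only GENCODE transcripts were searched, so other RNAs that may hold these bases were not looked for. A run of 30 bases identical between Lars2 and Gm15564, shown because reads from it fit both, is at chr9:123462059-123462088 on the + strand.
Lars2: GCGTTGGATTGTTCACCCACTAATAGGGAA

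How many Lars2 reads came from this stretch was not tested, since the table holds 1 count per gene.

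Iars2, for isoleucine, and Tars2, for threonine, also lay above 10 CPM per kilobase. Iars2 was read at 22.8, 24.9 and 20.6 and Tars2 at a mean of 16.3 ± 2.86 CPM per kilobase, lowest in replicate 1 (edgeR adjusted p = 8.02e-05 and 0.00388). In GENCODE, exons of Iars2 share 2034 bases with Rab3gap2 on the opposite strand. They lie at bases 3438 to 5471 of the longest coding transcript, while the deposited gene length is 3540 bases. How much of the overlap was counted for Iars2 is therefore not known. The labels and file do not say whether counting used strand. Rab3gap2 was read at 7.89, 14.0 and 11.2 CPM per kilobase, below Iars2 in each library.

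Rars2 (12.9 ± 1.47 CPM per kilobase), Hars2 (11.9 ± 1.60), Fars2 (11.3 ± 0.890), Cars2 (10.5 ± 0.700), Yars2 (7.72 ± 0.930) and Vars2 (7.32 ± 2.69) were not separated from 10. These charge mitochondrial tRNAs with arginine, histidine, phenylalanine, cysteine, tyrosine and valine. Exons of 3 of them share bases with another gene on the opposite strand in GENCODE. Fars2 shares 501 with Nrn1 and 115 with Lyrm4, Cars2 422 with Naxd, and Vars2 465 with Gm20483. The part of these bases in the counts was not tested. Like Vars, Vars2 was highest in replicate 2, at 4.99, 10.3 and 6.69 CPM per kilobase. Without replicate 2 it lay below 10 (edgeR adjusted p = 0.00585).

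The 7 genes below 10 CPM per kilobase were all mitochondrial. Ears2 (6.67 ± 1.09), for glutamate, Mars2 (6.66 ± 1.32), for methionine, Nars2 (5.76 ± 0.795), for asparagine, and Sars2 (5.48 ± 1.58), for serine, lost this call without replicate 3 (edgeR adjusted p = 0.318, 0.137, 0.0601 and 0.115), and Mars2 also without replicate 1 (0.0750). The call on Ears2 rested on an adjusted p of 0.0498 and was lost in 7 of 10 alternatives, among them each left-out library, 2 normalisations, no filter and DESeq2 (adjusted p from 0.0510 to 0.318). Aars2, for alanine (4.15 ± 1.19), Wars2, for tryptophan, and Pars2, for proline (3.54 ± 0.508), kept it in every alternative tried.

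Wars2 was read at 2.70, 6.22 and 3.13 CPM per kilobase in replicates 1, 2 and 3. Replicate 2 was 2.31 times replicate 1, by 383 against 112 counts. Pars2 had the lowest mean of the 35, at the 43.3rd percentile of genes tested, with 4.05, 3.52 and 3.04 CPM per kilobase. In replicate 1 Wars2, Aars2 and Sars2 were lower (2.70, 2.90 and 3.76).

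Enzymes for the same amino acid were then compared within each library. Of 16 pairs, 14 had the cytosolic gene higher in all 3 libraries and 2 the mitochondrial gene, and 0 were mixed. With 3 libraries an exact sign-flip permutation test cannot go below p = 0.25, so the pairs are given with their spread alone. The largest ratio was that of Eprs to Pars2, 3.45, 3.83 and 4.05 on the log2 scale (3.78 ± 0.30, 13.7-fold). Next came Eprs to Ears2 (2.87 ± 0.29), Sars to Sars2 (2.86 ± 0.36) and Nars to Nars2 (2.62 ± 0.31), which did not differ beyond their spread.

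Smaller ratios were found for the rest. Vars exceeded Vars2 by 2.27 ± 0.19 although each gene was uneven between libraries, since both were highest in replicate 2. Aars exceeded Aars2 by 2.54, 1.76 and 1.26, the widest spread among pairs in which the cytosolic gene was higher. The ratios of Farsa, Rars, Tars, Mars, Hars and Farsb to their mitochondrial counterparts ranged from 1.29 to 0.96, and Yars (0.52 ± 0.17) and Cars (0.39 ± 0.16) had the smallest ratios among pairs in which the cytosolic gene was higher. Hars and Hars2 lie head to head on chromosome 18 and share 195 exon bases on opposite strands, so their split is uncertain.

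The mitochondrial gene was higher for isoleucine and leucine. Iars stood below Iars2 by a small and even difference, with log2 ratios of -0.27, -0.23 and -0.27. Without length scaling 15 of 16 pairs had the cytosolic gene higher. Lars stood below Lars2 by log2 ratios of -1.98, -3.06 and -1.65 (a 4.69-fold difference). The part of the stretch shared with Gm15564 in the Lars2 counts was not tested.

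**Figure D3:**
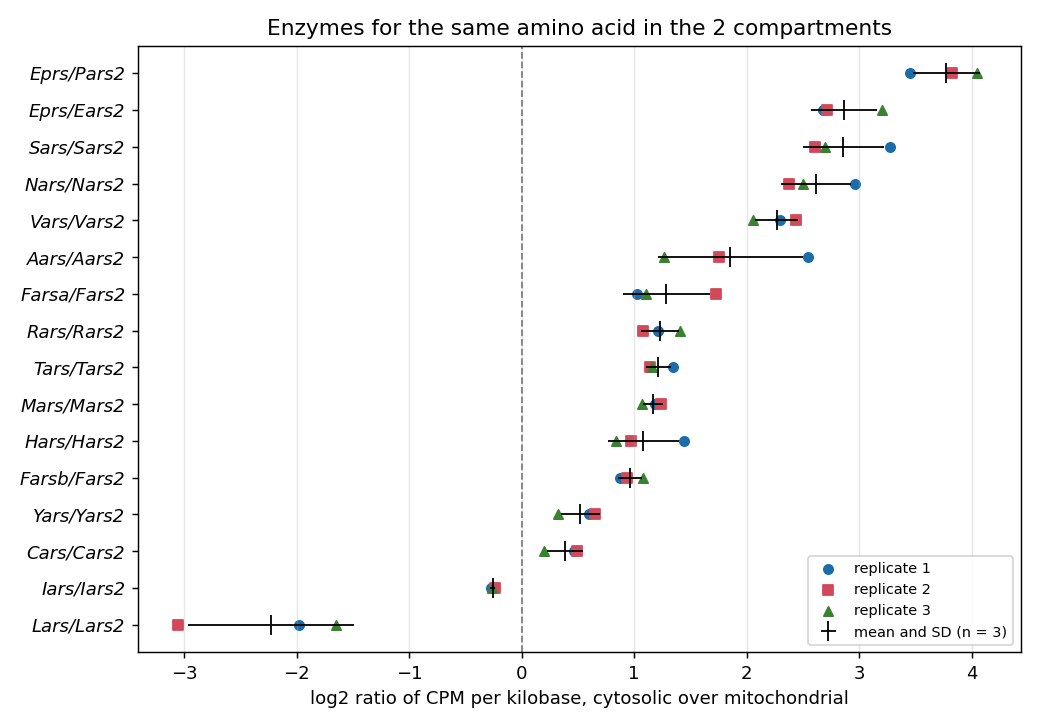
Log2 ratio of CPM per kilobase, cytosolic over mitochondrial gene, for 16 pairs that charge the same amino acid, with 1 point per library and the mean and SD of 3 libraries in black. The 3 points of a pair lie on the same side of the dashed line at 0 in every pair, to its left for Iars/Iars2 and Lars/Lars2 only.

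The members varied less between libraries than genes at large. The median ratio of the highest to the lowest library was 1.31 over the 35 genes (1.26 cytosolic, 1.36 mitochondrial) and 1.62 over all genes tested, many of which are read by far fewer counts. Ratios above 2 were seen for Lars2, Wars2, Vars and Vars2, all highest in replicate 2. Replicate 2 held the highest value of 19 members (54.3%, against 32.0% of all genes). Replicate 3 held that of 12 (34.3%, against 22.8%) and replicate 1 that of 4 (11.4%, against 45.2%). These shares compare genes at unlike levels, since the median CPM was 49.8 over the members and 12.4 over all genes tested. Low genes at large were lower in replicate 2, which held 3788 genes without a count, against 632 in replicate 1 and 2199 in replicate 3. The part of this in the shares was not tested. The 5 stem and progenitor genes (Cd34, Flt3, Myb, Cdk6 and Mycn) summed to 108, 227 and 140 CPM. The 5 monocyte genes summed to 602, 783 and 315 CPM and the T cell genes to 2150, 2820 and 2713 CPM, so these 3 lists were also highest in replicate 2. Other lists went the other way. B cell genes (189, 78.3 and 113 CPM), melanoma genes (5.28, 0.571 and 2.66 CPM), erythroid genes and macrophage genes were highest in replicate 1 and lowest in replicate 2. The neutrophil genes were also lowest in replicate 2. The part of any of these lists in the pattern was not tested.

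**Figure D4:**
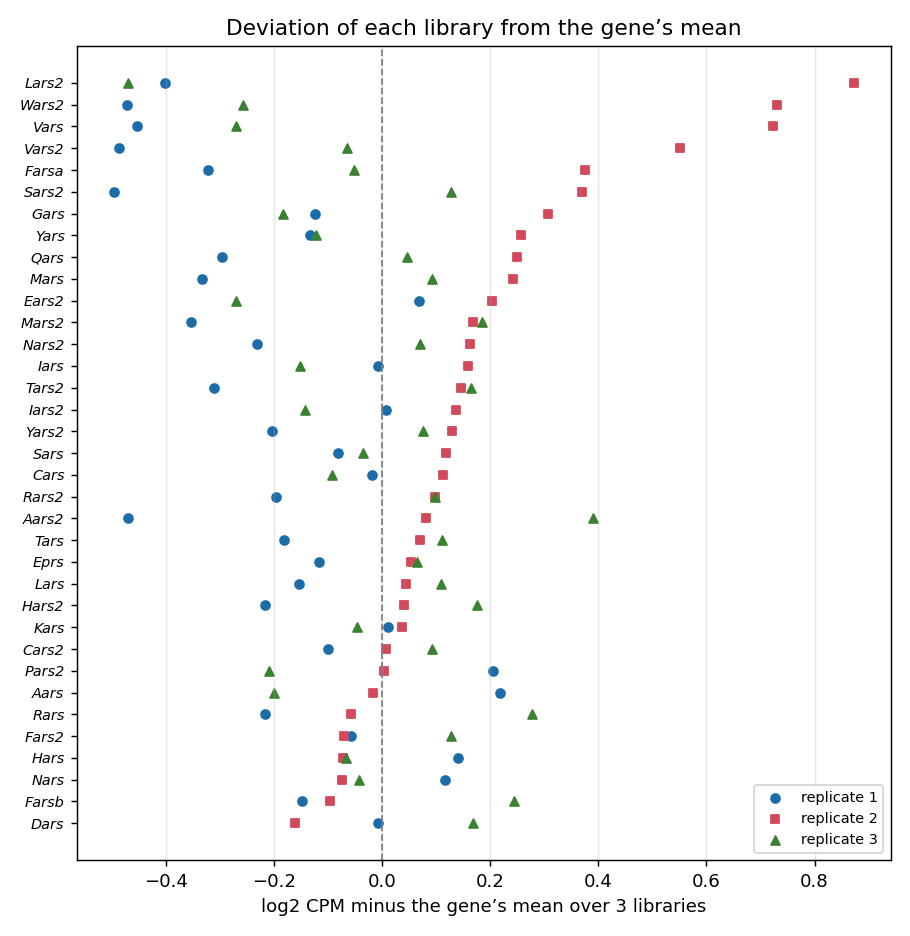
Deviation of log2 CPM in each library from the gene's mean over 3 libraries, with genes ordered by their value in replicate 2. Replicate 2 stands to the right of the other libraries for Lars2, Wars2, Vars and Vars2, while Kars and Cars2 show little deviation in any library.

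By enzyme class, of 17 class I genes 13 were highest in replicate 2, 4 in replicate 3 and 0 in replicate 1. Of 17 class II genes 6 were highest in replicate 2, 7 in replicate 3 and 4 in replicate 1 (Eprs, which holds a domain of each class, was highest in replicate 3). The shares of all genes highest in replicates 1, 2 and 3 were 45.2%, 32.0% and 22.8%, over genes with a lower median CPM than the members. The difference between the classes, whose genes share the same 3 libraries, was not tested. Over the 35 genes, which share the same libraries, the GC content of the longest coding transcript was set against the deviation in each library. Pearson's r was -0.16, 0.32 and -0.26 and Spearman's rho -0.07, 0.30 and -0.34 in replicates 1, 2 and 3. Over 14848 of the genes tested, r was -0.01, 0.04 and -0.05 and rho -0.05, 0.14 and -0.12.

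Of 16 other genes of tRNA charging, all lay above 1 CPM, 6 above 10 CPM per kilobase and 5 below, which is near the 30.9% and 37.4% of all genes above and below that level. Eef1a1, which carries charged tRNA to cytosolic ribosomes, was far above any synthetase (1259 ± 123 CPM per kilobase), while Tufm, its mitochondrial counterpart, was read at 2.02, 7.42 and 3.08 and lay below 10 (edgeR adjusted p = 0.0355). Dtd1 (17.1 ± 3.08), which removes D-amino acids from tRNA, Trnt1 (16.5 ± 2.78), which adds the CCA end, and the pyrophosphatases Ppa1 (16.7 ± 1.41) and Ppa2 (13.2, 16.9 and 18.1) lay above it.

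Mitochondria make glutaminyl-tRNA by converting glutamate on the tRNA, after Ears2 has charged it. The 3 subunits of the converting enzyme were near Ears2 in level, with 7.45 ± 1.61 for Qrsl1, 5.81 ± 0.585 for Gatb and 4.97 ± 0.660 for Gatc. Gatb and Gatc lay below 10 CPM per kilobase and Qrsl1 was not separated from it. Also below were Tarsl2, a second cytosolic threonine enzyme (4.67 ± 0.120, against 37.5 for Tars), and Prorsd1 (4.97 ± 0.799). Aarsd1 (13.0 ± 1.28), which removes misplaced serine from alanine tRNA, and Mtfmt (12.8 ± 3.32), which formylates mitochondrial methionyl-tRNA, were not separated.

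Genes of the amino acid response did not share 1 level. Of 13 measured, 4 lay above 10 CPM per kilobase and 8 below, against 30.9% and 37.4% of all genes, so the share above was near that of all genes. Atf4 was read at 68.4, 66.7 and 79.6 CPM per kilobase, above every synthetase except Lars2, and Slc3a2 (22.7 ± 2.02), Ddit4 (26.5 ± 10.8) and Ddit3 (34.1, 18.6 and 19.4) were also above. Ddit3 shares 68 exon bases with Mars on the opposite strand. Eif2ak4, which encodes GCN2, stood at 6.90 ± 0.498 and lay below 10 (edgeR adjusted p = 0.0198).

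The promoter motif was also found in 4 of 12 amino acid response genes with a window, Asns, Chac1, Trib3 and Slc7a11. These are targets of ATF4 in stressed cells, and each was low here. Outside these 4, Psat1 (6.34 ± 0.687), Phgdh (5.13 ± 1.12) and Sesn2 (2.76 ± 0.547) also lay below 10 CPM per kilobase, as did Eif2ak4. Slc7a5 (10.5 ± 2.39) was not separated from that level. A low level was therefore not particular to the listed genes with the motif. Asns, which makes asparagine, was read at 2.36, 0.185 and 0.788 CPM per kilobase, Chac1 at 1.41, 0.227 and 0.968, and Trib3 at 2.16, 0.695 and 2.15. All 3 were lowest in replicate 2, and Slc7a11 (0.732 ± 0.482) was too, with 0.240 there. Low genes at large were lower in that library: it held 3788 genes without a count, against 632 and 2199, and the mean over olfactory receptor genes was 0.249 CPM per kilobase in replicate 1, 0.0207 in replicate 2 and 0.0495 in replicate 3. The part of this in the low values was not tested. The 5 synthetase genes with the motif were read at 10.1 CPM per kilobase or more in every library.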

How the data were processed

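The table deposited by the authors holds raw counts of reads for 17857 genes in each of 3 libraries, and a gene length in bases. Tools named in the submitters' processing notes, with no role stated, are STAR 2.75, featureCounts, bcl2fastq and DESeq2, on mm10. For the annotation release, the strand setting and reads with several matches, nothing is given in the sources used here.

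From these counts, CPM was computed with edgeR 4.0.16 and TMM factors (1.04, 1.01 and 0.950), and divided by gene length. Genes with a summed count of at least 10 were tested (15490). edgeR's quasi-likelihood test with an intercept alone asked, two-sided, whether a level differed from 1 CPM, 50 CPM or 10 CPM per kilobase. Its F test was written out, because glmQLFTest needs a design with more columns. On simulated data only the median error of the log2 level had to stay below a limit, for 50 CPM and 10 CPM per kilobase. No limit was set there on the p-values or the calls. Adjusted p denotes Benjamini-Hochberg adjustment over all genes tested, with a threshold of 0.05. List and pair differences use log2 CPM with a prior count of 0.5 and carry no test. Alternatives were other normalisations, filters, robust empirical Bayes, DESeq2 1.42.0, limma 3.58.1 and leaving out each library. Counts limit precision through counting error, given as a coefficient of variation, and reads carry no molecular identifier.

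All 35 members matched RefSeq of GRCm38.p6, the assembly of mm10, by Entrez identifier, and promoter windows were found for 27. Not every match to the promoter motif is reported here. Exon overlaps and shared stretches (BLAST 2.17.0, at least 95% identity over 50 bases) come from GENCODE M21 transcripts, and not all of them are reported here. The rule for naming took all members, the listed genes of tRNA charging and of the amino acid response (Gcn1l1 was not analysed here) and the sort markers. Wars and Rab3gap2 were added after their values were seen. Members and lists were chosen with earlier results of these data known.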

Additional observations from a re-analysis of the deposited data

How the results depend on the processing

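Under 10 other settings (2 normalisations, 2 filters, 3 tests and 3 left-out libraries) the number of synthetases above 1 CPM was 35 each time. The number above 50 CPM ranged from 14 to 16 and the number below it from 11 to 14, and the lowest values came without replicate 3. The number above 10 CPM per kilobase ranged from 19 to 22, and the number below it from 3 to 8, with 3 without replicate 3, 5 without replicate 1 and 7 without replicate 2. Leaving out a library leaves 2 samples and less power. On single genes these settings lost 7 calls against 50 CPM and 14 against 10 CPM per kilobase, gained 3 against the latter and reversed none. The cytosolic excess of 1.52 on the log2 scale was 1.90 with the median over genes and, chosen after seeing the data, 1.78 without Lars2. It ranged from 1.46 to 1.58 without single libraries and was 1.57 without length scaling and 1.46 without Gars and Kars. The count of pairs with the cytosolic gene higher (14) was 15 without length scaling. Over all genes, the count below 50 CPM was 6202 with edgeR's own filter and 5513 without replicate 3, against 10336, and the count below 10 CPM per kilobase was 3737 and 2249, against 5795. Normalisation by DESeq2 size factors or library totals moved the median log2 level of all genes by -0.00092 and 0.0026. No paired analysis was possible because the labels give 1 group.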
